A study of Mus musculus with 12 samples.

Results

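The genes described are 10 mouse genes, most of them nuclear receptors that sense lipids, chosen by name and found by their identifiers among the 55604 genes counted: the LXR genes Nr1h2 and Nr1h3, the PPAR genes Pparg and Ppard, the coactivator gene Ppargc1b, the RXR genes Rxra and Rxrb, the retinoic acid receptor gene Rara, the orphan receptor gene Nr4a1 and the clock receptor gene Nr1d2. Not all of them fit the name of lipid sensor. Ppargc1b encodes PGC-1β, which binds receptors and not DNA or ligand, Nr1d2 encodes REV-ERBβ, which binds heme, and Nr4a1 has no established lipid ligand and is set mainly by how much of it is transcribed. All 10 passed the filter on low counts and were among the 16406 genes tested, with 122 to 5672 reads per library, so none owed its test to a single high group.

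As background, nuclear receptors are transcription factors that are switched by small lipid-soluble ligands. The LXRs respond to oxysterols and to sterol precursors such as desmosterol, the PPARs to fatty acids and their oxidised products, and the RARs to retinoic acid, and all of these receptors bind DNA as pairs with an RXR. In macrophages the LXRs are known for switching on cholesterol export, PPARγ and PPARδ for switching on lipid storage and fatty acid oxidation, and members of both families for raising the machinery that takes up dying cells.

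The RNA came from macrophages grown from C57BL/6 bone marrow with 20 ng/ml of the growth factor M-CSF and used on day 7, in 3 groups of 4 libraries each. The first group had been given STC1OE B16-F10 corpses, that is, dead cells of a mouse melanoma line made to overexpress the secreted glycoprotein STC1. The second had been given control B16-F10 corpses, and the third was kept without corpses (macrophages alone). Corpses were given at 5 per macrophage, and after 20 h those not bound were washed off; the sources used here do not give how the corpses were made. The series' design text calls the replicates independent experiments, and nothing in the labels says that a replicate number was shared across groups.

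Assigned counts ranged from 28488441 to 39981074 per library, and 41.0% to 46.6% of all reads fell on lines that name no gene. Values below are CPM, read counts per library scaled to a common size with TMM factors, given as mean ± SD with n = 4 per group. Calls are adjusted p-values below 0.05 from edgeR's quasi-likelihood test with Benjamini-Hochberg adjustment over all genes tested, with each log2 fold change followed by its standard error. All 10 macrophage markers were detected in every group (summed level 14075 to 15191 CPM with STC1OE corpses, 14131 to 15808 CPM with control corpses and 16428 to 17324 CPM in macrophages alone). Of 16 melanocyte markers, 15 had reads in the STC1OE group, 16 in the control corpse group and 13 in macrophages alone, where Tyr, Oca2 and Gpr143 were at 0. The 14 of them that lay below 1 CPM in macrophages alone, a subset taken after their values were seen, summed to 8.48 to 10.5 CPM with STC1OE corpses, 13.4 to 17.96 CPM with control corpses and 2.18 to 2.80 CPM in macrophages alone. Over all 16 the sums were 120.1 to 123.5 CPM, 125.7 to 130.7 CPM and 164.9 to 172.1 CPM in the same order, most of it Mitf, which macrophages express. Neutrophil markers, 8 of 9 with reads in each group and Ly6g at 0 throughout, summed to 4.30 to 5.28 CPM with STC1OE corpses, 3.83 to 5.13 CPM with control corpses and 15.3 to 17.3 CPM in macrophages alone. B cell markers, of which 5, 4 and 6 of 6 had reads in the same order, summed to 4.35 to 4.74 CPM, 4.60 to 5.32 CPM and 14.5 to 15.8 CPM. Most of that difference was Ighm, with means of 2.50, 2.55 and 12.5 CPM. Cd79b (1.64, 1.90 and 2.11 CPM) and Cd79a (0.329, 0.342 and 0.357 CPM) moved little. These marker sums moved with the presence of corpses, and that of the 14 melanocyte markers also differed between the kinds of corpse. Their part in the results below was not tested. Mouse Stc1 had 17 reads over the 4 STC1OE libraries, 5 over the control corpse libraries and 5 over macrophages alone; the labels do not say which species' sequence was overexpressed, so this count is a weak check of the labels. Within groups, libraries 1 and 2 and libraries 3 and 4 resembled each other in macrophages alone (chi-square per degree of freedom 3.12 and 2.88, against 6.00 to 13.5 across) and with STC1OE corpses (4.26 and 2.81, against 11.2 to 17.1), for no reason the labels give. With control corpses this held for libraries 3 and 4 (2.73) and not for libraries 1 and 2 (7.03, against 5.46 to 9.11). Every library is nevertheless counted as 1 replicate here.

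Levels of different genes were compared per kilobase of annotated exon. Of the 49 nuclear receptor genes of the mouse, 26 were tested, and the 4 highest over the 12 libraries were all among the genes described here: Nr1h2, Rxra, Nr1h3 and Pparg. Nr1h2 stood at 27.8 ± 0.982 CPM per kb with STC1OE corpses, 26.1 ± 0.354 CPM per kb with control corpses and 26.7 ± 1.27 CPM per kb in macrophages alone. At the low end Ppard had 3.59 ± 0.319, 3.22 ± 0.108 and 3.87 ± 0.134 CPM per kb, and Ppargc1b lay between 2.07 and 2.51 CPM per kb in the group means. The receptors with no read in any of the 12 libraries numbered 8 and included Rxrg, the third RXR. Ppara, the third PPAR, had 0 reads in either corpse group and 1 read in macrophages alone.

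The order of the levels differed between macrophages with and without corpses. With STC1OE corpses, and also with control corpses, the order per kilobase was Rxra, Nr1h2, Nr1h3 and Pparg, and only Rxra and Nr1h2 overlapped among these neighbours. In macrophages alone it was Nr1h2, Pparg, Rxra and Nr1h3, where Pparg and Rxra overlapped and the other neighbours did not. Next in every group came Rara, Nr1d2 and Rxrb, within 8.22 to 9.97 CPM per kb; among these, Rara and Nr1d2 lay apart only with STC1OE corpses, and Nr1d2 and Rxrb overlapped in both corpse groups, as did Rxrb and Rara in macrophages alone. Nr4a1 stood beside Ppard in macrophages alone (3.93 ± 0.199 CPM per kb, ranges overlapping) and lowest of the 10 with either kind of corpse.

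**Figure D1:**
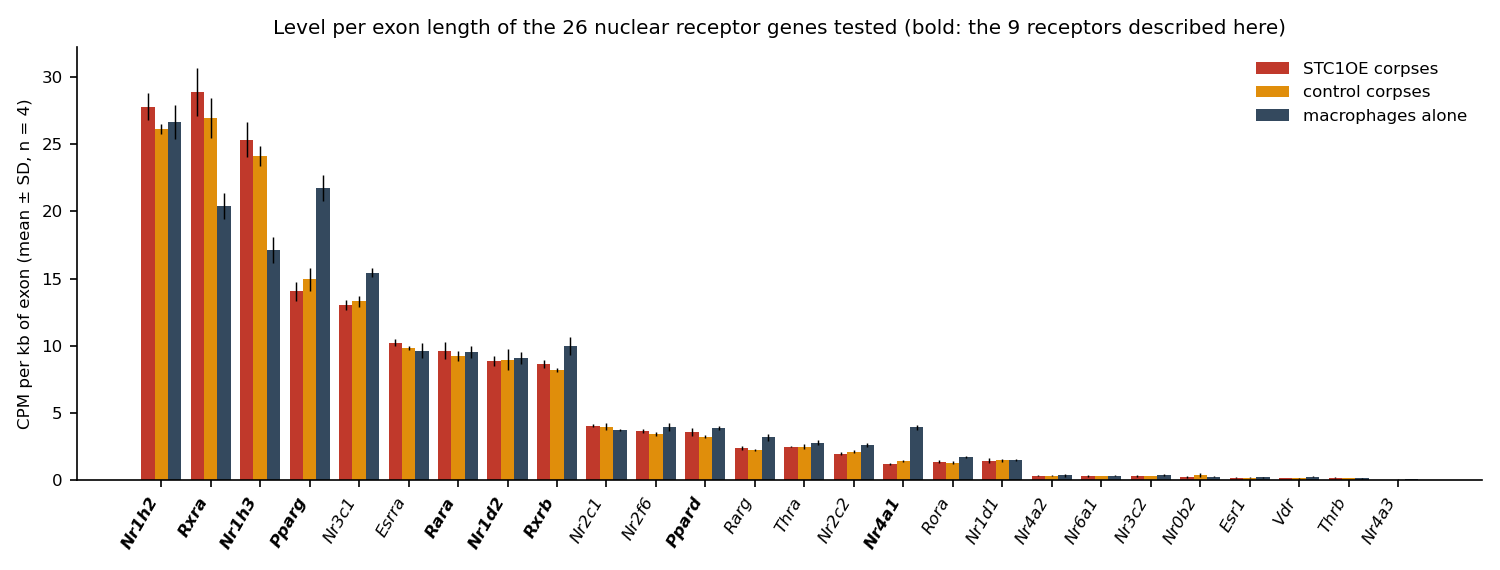
CPM per kilobase of annotated exon (y axis, linear) for each of the 26 nuclear receptor genes tested (x axis), as bars of the mean of 4 libraries with the SD, for STC1OE corpses, control corpses and macrophages alone. Pparg and Nr4a1 stand lower with either kind of corpse, while Rxra and Nr1h3 stand higher.

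The main question of the design was what macrophages do after taking up corpses. Of the 10 genes, 6 were called with STC1OE corpses against macrophages alone, of which 3 rose and 3 fell, and 6 with control corpses, of which 2 rose and 4 fell. Across all genes tested 43.8% were called in the first comparison (21.4% higher and 22.4% lower) and 40.1% in the second (19.7% higher and 20.5% lower), so a call by itself was common here. Ranges did not overlap for 5 of the 10 in the first and 6 in the second, against 40.0% and 37.2% of all genes tested. The median log2 fold change of the 10 was −0.01 with STC1OE and −0.04 with control corpses, against −0.03 and −0.00 over all genes tested. The largest movements were a fall of Nr4a1 to about 0.305 of its level with STC1OE corpses and 0.366 with control corpses, a fall of Pparg and a rise of Nr1h3 and Rxra. As these are bulk libraries, fewer cells of a type and less RNA per cell cannot be told apart. The 2 comparisons share the same 4 macrophage libraries, so that their values are given side by side and not as support for each other.

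**Figure D2:**
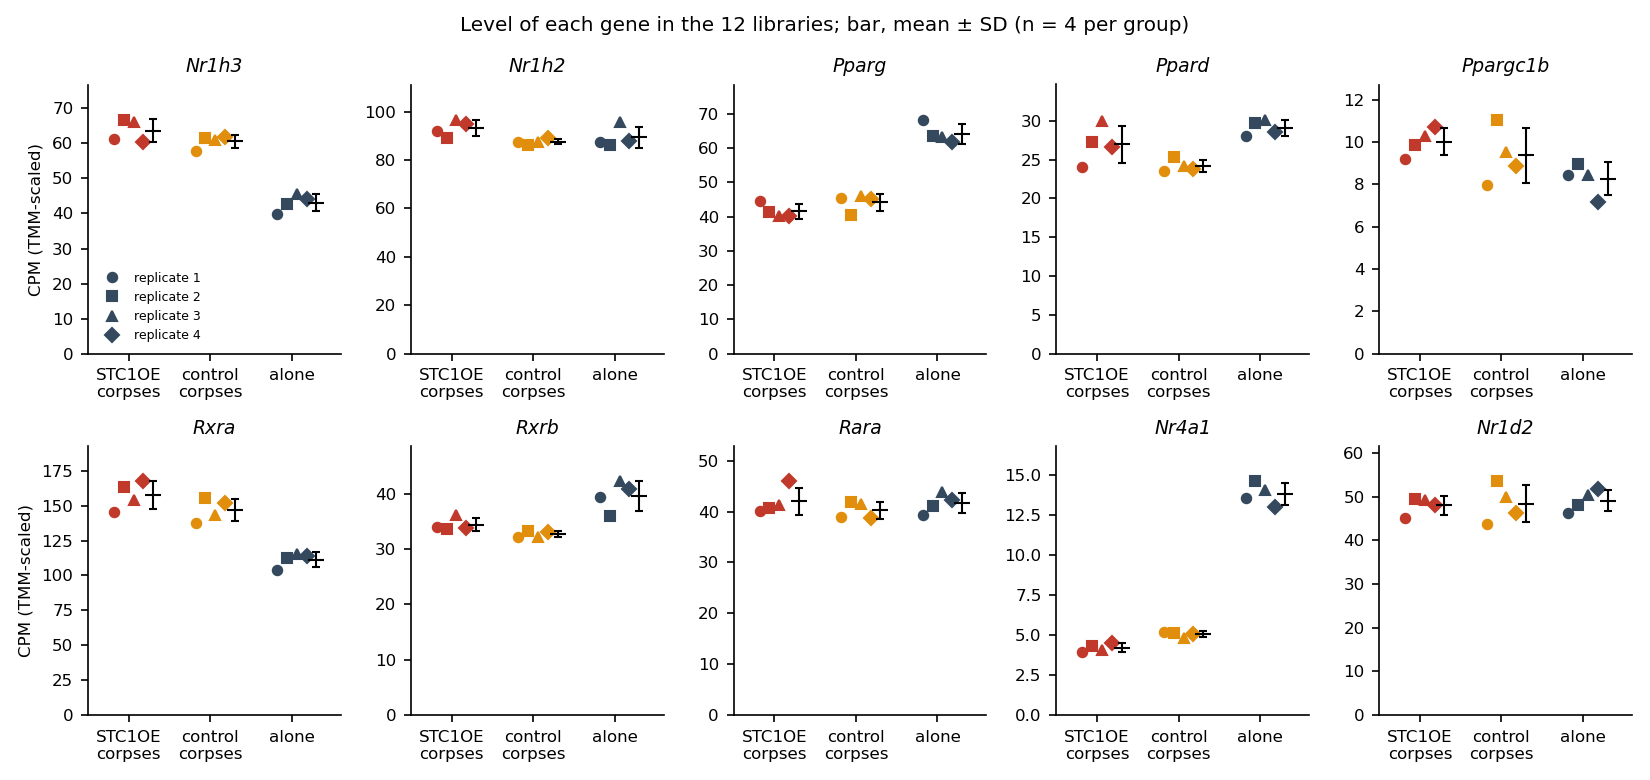
CPM (y axes, linear from 0) of the 10 genes in each of the 12 libraries, by group (x axes), with marker shape for the replicate number and the bar showing mean ± SD of 4 libraries. For Nr1h3, Pparg, Rxra and Nr4a1 every library with corpses lies outside the range of macrophages alone, while for Nr1h2, Rara and Nr1d2 the groups overlap.

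**Figure D3:**
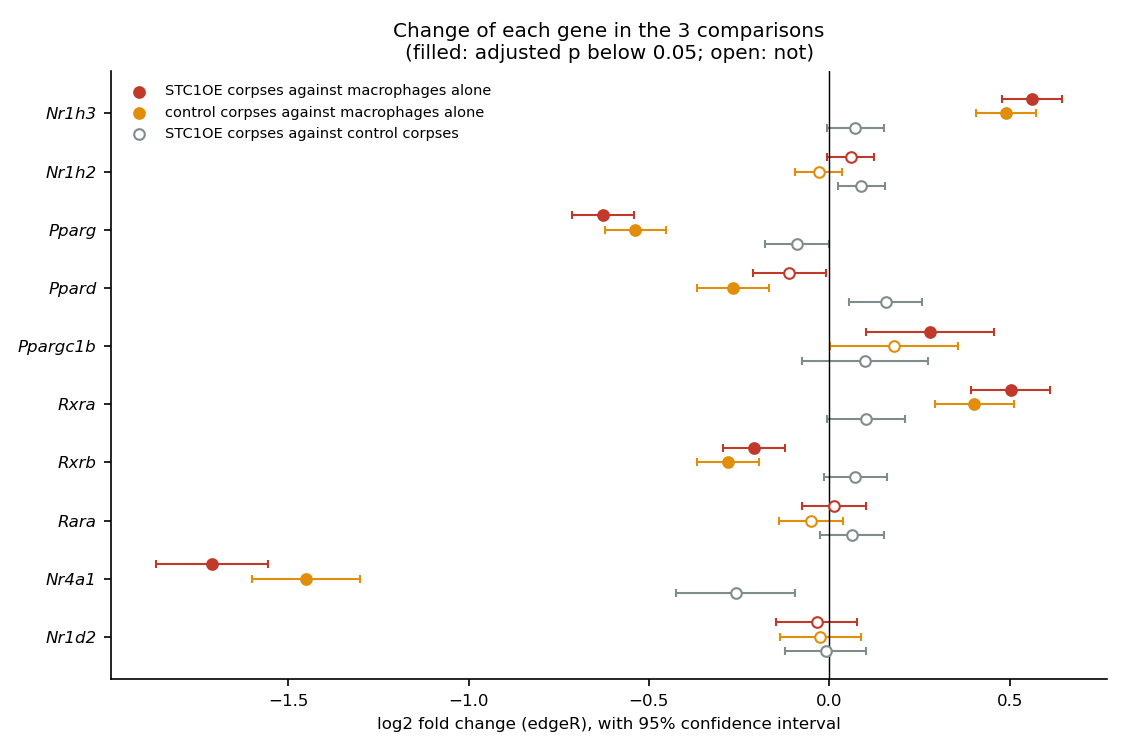
log2 fold change of each gene (x axis) with its 95% confidence interval from edgeR, for STC1OE corpses against macrophages alone, control corpses against macrophages alone, and STC1OE against control corpses; filled points passed an adjusted p below 0.05. Nr4a1 moved farthest, at −1.71 and −1.45, and no point of the third comparison is filled.

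Nr1h3 encodes LXRα, the LXR that is enriched in macrophages, liver and fat (ENSMUSG00000002108.10, minus strand of chromosome 2, 91184061 to 91202834, GRCm38). It was at 61.2, 66.8, 66.2 and 60.5 CPM in the 4 libraries with STC1OE corpses, at 57.8, 61.7, 60.9 and 61.9 CPM with control corpses and at 39.9, 42.6, 45.5 and 44.2 CPM in macrophages alone. Every library with corpses was above every library without them. The log2 fold change was 0.56 ± 0.04 with STC1OE corpses (adjusted p = 9.17e-13 by edgeR) and 0.49 ± 0.04 with control corpses (adjusted p = 2.26e-11 by edgeR), a rise of 47.6% and 40.4%. Of its 2515 annotated exon bases 34 are shared with another annotated gene, Gm13783 on the same strand.

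Nr1h2 encodes LXRβ, which most tissues express (ENSMUSG00000060601.13, chromosome 7, 44549616 to 44553951). It stood at 92.0, 89.2, 96.8 and 94.8 CPM with STC1OE corpses, 87.7, 86.3, 87.4 and 89.2 CPM with control corpses, and 87.4, 86.4, 95.7 and 88.1 CPM in macrophages alone. These ranges overlapped throughout, and neither corpse group was called against macrophages alone (log2 fold change 0.06 with a 95% interval of −0.01 to 0.13 for STC1OE corpses, and −0.03 with −0.10 to 0.04 for control corpses). The intervals leave room for changes of up to 1.09-fold upwards with STC1OE corpses and down to 0.936-fold with control corpses.

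The balance of the LXRs was measured within each library as the ratio of the 2 genes, which does not depend on library scaling. Per kilobase of exon, Nr1h3 over Nr1h2 was 0.887, 0.999, 0.912 and 0.851 with STC1OE corpses, 0.880, 0.953, 0.930 and 0.925 with control corpses and 0.609, 0.658, 0.634 and 0.670 in macrophages alone. The ratio was thus higher in all 8 libraries with corpses than in all 4 without them, where LXRα stood further below LXRβ. The ratio rose 1.42-fold with STC1OE corpses and 1.43-fold with control corpses (exact two-sided permutation p = 0.0286 for each, the smallest that 4 against 4 libraries allow, adjusted p = 0.0429 over the 9 ratio tests). The adjusted value depends on how many of the 9 tests reached this smallest p. All that reached it share the 4 libraries of macrophages alone, so the ratios did not pass separately from each other.

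The 250 bases before and 50 after the annotated start of a gene were taken from RefSeq's GRCm38.p6 annotation for the members. Windows were matched for 9 of the 10 genes (17 windows, as a gene can have several starts), all but Ppargc1b. Only windows of the members whose transcripts moved most are shown. The window of Nr1h3 at chr2:91195067-91195366, minus strand, is shown because the gene rose with both kinds of corpse, and the window of Nr4a1 at chr15:101266596-101266895, plus strand, because it fell most. The window of Pparg at chr6:115362099-115362398 and that of Rxra at chr2:27709042-27709341, both plus strand, are those of each gene's windows in which AGGTCA, the core motif that these receptors recognise, begins closest to the start. The first window of Pparg, not shown, also holds it, 28 bases before its start. Capitals mark matches to the motifs searched, in either direction.
Nr1h3: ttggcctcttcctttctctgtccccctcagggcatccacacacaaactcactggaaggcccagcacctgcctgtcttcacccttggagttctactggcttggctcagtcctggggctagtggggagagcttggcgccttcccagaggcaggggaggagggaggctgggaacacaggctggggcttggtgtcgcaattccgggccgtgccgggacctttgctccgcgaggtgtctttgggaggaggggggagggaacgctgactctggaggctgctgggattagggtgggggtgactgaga
Nr4a1: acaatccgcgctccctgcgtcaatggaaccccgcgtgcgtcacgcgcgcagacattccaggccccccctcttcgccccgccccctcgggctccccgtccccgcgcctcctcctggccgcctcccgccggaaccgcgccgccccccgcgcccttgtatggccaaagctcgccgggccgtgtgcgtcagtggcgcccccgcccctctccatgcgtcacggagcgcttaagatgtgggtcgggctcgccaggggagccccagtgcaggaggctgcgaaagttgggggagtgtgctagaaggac
Pparg: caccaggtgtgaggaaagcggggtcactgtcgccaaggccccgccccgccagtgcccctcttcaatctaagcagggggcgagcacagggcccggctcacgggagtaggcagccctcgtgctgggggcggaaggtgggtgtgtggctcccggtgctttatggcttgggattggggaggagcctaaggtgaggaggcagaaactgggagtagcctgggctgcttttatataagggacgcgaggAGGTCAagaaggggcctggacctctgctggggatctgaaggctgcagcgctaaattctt
Rxra: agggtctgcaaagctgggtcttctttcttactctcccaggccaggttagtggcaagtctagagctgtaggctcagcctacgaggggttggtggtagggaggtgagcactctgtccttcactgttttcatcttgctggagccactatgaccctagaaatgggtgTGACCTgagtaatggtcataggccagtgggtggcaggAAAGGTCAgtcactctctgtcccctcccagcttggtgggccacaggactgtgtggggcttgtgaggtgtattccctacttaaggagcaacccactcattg
The motifs searched on both strands were direct repeats of AGGTCA with 4 bases between them, known to be bound by LXR and RXR, and with 1 base between them, known to be bound by PPAR and RXR, AAAGGTCA, which NR4A receptors bind as single molecules, the core motif AGGTCA contained in all of these, the cAMP response element TGACGTCA and the E-box CACGTG. Of the 32851 windows in the table, 0.0152%, 0.0396%, 1.51%, 16.3%, 1.79% and 7.15% hold them, in this order. None of the 17 windows of these genes holds either repeat or TGACGTCA. AGGTCA is in 5 of the 17, namely the first and second windows of Pparg, the second of Rxra, the fourth of Rara and that of Nr1d2. CACGTG is in 2, the first and second windows of Rara, which overlap each other. AAAGGTCA is in 1, the second window of Rxra, where it overlaps an AGGTCA that begins 48 bases before the start, and the other AGGTCA there begins 87 bases before it on the opposite strand. In the second window of Pparg the core motif begins 9 bases before the start. Such matches describe letters only, and counts per gene do not show which start was used.

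Pparg encodes PPARγ, the receptor through which fat cells and alternatively activated macrophages store lipid (ENSMUSG00000000440.12, chromosome 6, 115360951 to 115490399). It was at 44.5, 41.4, 40.1 and 40.0 CPM with STC1OE corpses, at 45.3, 40.4, 45.9 and 45.0 CPM with control corpses and at 68.3, 63.4, 63.2 and 61.8 CPM in macrophages alone. All 8 libraries with corpses were below all 4 without. The log2 fold change was −0.63 ± 0.04 with STC1OE corpses (adjusted p = 2.44e-13 by edgeR) and −0.54 ± 0.04 with control corpses (adjusted p = 6.71e-12 by edgeR), so that Pparg fell by 35.3% with STC1OE and fell by 31.1% with control corpses.

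Ppard encodes PPARδ, a fatty acid sensor of wide expression (ENSMUSG00000002250.16, chromosome 17, 28232700 to 28301474). It was at 24.1, 27.2, 29.9 and 26.7 CPM with STC1OE corpses, at 23.6, 25.4, 24.2 and 23.7 CPM with control corpses and at 28.0, 29.7, 30.2 and 28.5 CPM in macrophages alone. With control corpses every library lay below macrophages alone, and Ppard fell by 0.27 on the log2 scale (SE 0.05, adjusted p = 4.71e-05 by edgeR). With STC1OE corpses the third library reached the range of macrophages alone, and the difference of −0.11 ± 0.05 was not called (adjusted p = 0.0681 by edgeR). That comparison turned on a few choices: it passed at adjusted p = 0.0121 by edgeR without the third STC1OE library and at 0.0393 with upper quartile scaling. Against a change of 1.2-fold in place of 0, the fall with control corpses was not called.

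Pparg over Ppard, per kilobase, was 4.70, 3.87, 3.41 and 3.82 with STC1OE corpses, 4.89, 4.06, 4.83 and 4.82 with control corpses, and 6.20, 5.43, 5.33 and 5.51 in macrophages alone. PPARγ transcripts outnumbered those of PPARδ everywhere, by least in the libraries with STC1OE corpses 2 to 4. The ratio fell to 0.699 of its level in macrophages alone with STC1OE corpses and to 0.827 with control corpses (exact two-sided permutation p = 0.0286 for each, adjusted p = 0.0429). With any 1 library of macrophages alone left out, the first of these had an adjusted p of 0.0735 (exact permutation test), with log2 differences of −0.54 to −0.47.

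Ppargc1b encodes PGC-1β, a coactivator of PPARs and of oestrogen-related receptors that drives mitochondrial genes (ENSMUSG00000033871.14, chromosome 18, 61298136 to 61400431). It was at 9.20, 9.86, 10.3 and 10.7 CPM with STC1OE corpses, at 7.98, 11.1, 9.53 and 8.88 CPM with control corpses and at 8.46, 8.98, 8.45 and 7.18 CPM in macrophages alone. The STC1OE libraries lay above macrophages alone, and the log2 fold change of 0.28 ± 0.09 was called (adjusted p = 0.00984 by edgeR), but not without the fourth library of macrophages alone (adjusted p = 0.0563 by edgeR) nor against a change of 1.2-fold. The control corpse libraries overlapped those of macrophages alone (0.18 ± 0.09, adjusted p = 0.103 by edgeR); without the first of them the difference was 0.25, with adjusted p = 0.019 by edgeR. Its relative Ppargc1a, for PGC-1α, was too low to test, with 6 reads over the STC1OE libraries, 15 over the control corpse libraries and 4 over macrophages alone.

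Rxra encodes RXRα, the shared partner of the LXRs, PPARs and RARs (ENSMUSG00000015846.14, chromosome 2, 27676440 to 27762957). It was the most abundant of the 10 genes in CPM, with 145.5, 163.5, 154.4 and 167.6 CPM with STC1OE corpses, 137.9, 155.3, 143.3 and 151.985 CPM with control corpses and 103.6, 112.4, 115.4 and 113.8 CPM in macrophages alone. All libraries with corpses were above all without. Rxra rose by 0.50 ± 0.05 on the log2 scale with STC1OE corpses (adjusted p = 1.92e-06 by edgeR) and by 0.40 ± 0.05 with control corpses (adjusted p = 2.00e-05 by edgeR), or 1.42-fold and 1.32-fold.

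Rxrb encodes RXRβ (ENSMUSG00000039656.16, chromosome 17, 34031812 to 34038399) and went the other way. It stood at 34.0, 33.5, 36.1 and 33.7 CPM with STC1OE corpses, 32.2, 33.3, 32.1 and 33.0 CPM with control corpses and 39.4, 36.0, 42.3 and 40.8 CPM in macrophages alone. The fall of 0.28 with control corpses came from ranges that did not overlap, whereas with STC1OE corpses the third library (36.06 CPM) just passed the second of macrophages alone (35.99 CPM). Rxrb fell by 0.21 on the log2 scale with STC1OE corpses (SE 0.04, adjusted p = 0.000142 by edgeR) and fell by 0.28 with control corpses (SE 0.04, adjusted p = 1.97e-06 by edgeR), and neither fall was called against a change of 1.2-fold.

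The ratio of RXRα to RXRβ transcripts showed the widest shift of the 3 pairs with control corpses and with STC1OE corpses. Per kilobase, Rxra over Rxrb was 3.11, 3.55, 3.11 and 3.61 with STC1OE corpses, 3.11, 3.39, 3.25 and 3.35 with control corpses and 1.91, 2.27, 1.99 and 2.03 in macrophages alone. The lowest library with corpses was above the highest without. The ratio rose 1.63-fold with STC1OE corpses and 1.60-fold with control corpses (exact two-sided permutation p = 0.0286 for each, adjusted p = 0.0429).

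**Figure D4:**
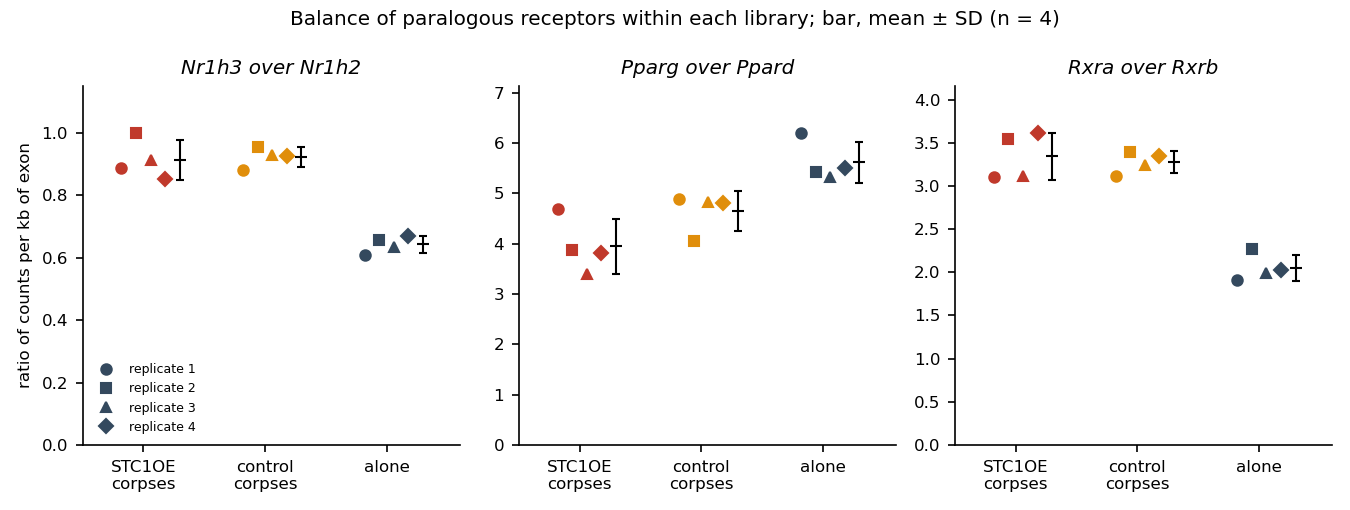
Ratio of counts per kilobase of exon (y axes, linear from 0) within each of the 12 libraries for Nr1h3 over Nr1h2, Pparg over Ppard and Rxra over Rxrb, by group (x axes), with marker shape for the replicate number and bars of mean ± SD over 4 libraries. The first and last ratios are higher and the middle one lower in all 8 libraries with corpses than in the 4 libraries of macrophages alone.

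Rara encodes RARα, a retinoic acid receptor of myeloid cells (ENSMUSG00000037992.16, chromosome 11, 98927818 to 98974942). It was at 40.1, 40.7, 41.3 and 46.0 CPM with STC1OE corpses, at 38.9, 41.9, 41.5 and 38.8 CPM with control corpses and at 39.3, 41.1, 43.9 and 42.3 CPM in macrophages alone. The groups overlapped, and the log2 differences of 0.01 (95% interval −0.08 to 0.10) with STC1OE and −0.05 (−0.14 to 0.04) with control corpses were not called.

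Nr1d2 encodes REV-ERBβ, a repressor in the circadian clock (ENSMUSG00000021775.11, chromosome 14, 18204054 to 18239127). It was at 45.1, 49.6, 49.3 and 48.2 CPM with STC1OE corpses, at 43.8, 53.6, 49.96 and 46.4 CPM with control corpses and at 46.3, 48.2, 50.4 and 51.7 CPM in macrophages alone. The differences of −0.04 (95% interval −0.15 to 0.08) and −0.03 (−0.14 to 0.09) were not called, and the spread within a group was as wide as that between groups.

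Nr4a1 encodes NUR77, an orphan receptor transcribed within minutes of many stimuli and known to restrain inflammatory genes in macrophages (ENSMUSG00000023034.7, chromosome 15, 101254269 to 101274795). It was at 3.95, 4.31, 4.04 and 4.52 CPM with STC1OE corpses, at 5.2, 5.10, 4.79 and 5.06 CPM with control corpses and at 13.5, 14.6, 14.1 and 13.0 CPM in macrophages alone. Every library with corpses was far below macrophages alone, with the highest library with corpses at 5.2 CPM and the lowest without at 13.0 CPM. The log2 fold change was −1.71 ± 0.08 with STC1OE corpses (adjusted p = 4.70e-18 by edgeR) and −1.45 ± 0.07 with control corpses (adjusted p = 1.38e-16 by edgeR).

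The other NR4A genes were low. Nr4a3 (NOR1) also fell, to 0.101 ± 0.0511 CPM with STC1OE corpses and 0.243 ± 0.138 CPM with control corpses against 0.63 ± 0.127 CPM in macrophages alone (adjusted p = 6.41e-06 and 0.00149 by edgeR, from 13, 34 and 81 reads summed over each group's libraries). Nr4a2 (NURR1) stood at 1.37 ± 0.113, 1.38 ± 0.166 and 1.43 ± 0.337 CPM in the same order and was not called. Immediate early genes outside the family were mixed: of 13 genes in the list that holds them with Nr4a2 and Nr4a3, 3 rose and 5 fell with STC1OE corpses, and 3 rose and 5 fell with control corpses. Over all genes tested 21.4% rose and 22.4% fell with STC1OE corpses, and 19.7% and 20.5% with control corpses. Egr2, a zinc finger factor, fell to 1.05 ± 0.204 CPM with STC1OE corpses and 0.876 ± 0.199 CPM with control corpses against 2.06 ± 0.298 CPM in macrophages alone. Its relative Egr1 rose to 35.6 ± 3.72 CPM with STC1OE corpses and 36.9 ± 3.76 CPM with control corpses, against 24.4 ± 1.59 CPM in macrophages alone, and Fosl1, an AP-1 subunit, rose to 3.39 ± 0.488 and 3.33 ± 0.948 CPM against 2.11 ± 0.147 CPM. Ier2 (29.5 ± 1.40, 31.5 ± 2.05 and 31.5 ± 2.11 CPM) and Ier3 (7.13 ± 0.624, 6.98 ± 0.213 and 7.10 ± 0.832 CPM) were not called in any comparison.

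The effect of the overexpressed protein was asked by comparing the corpse groups with each other. These groups also differed in melanocyte markers, of which 1 of 11 tested was higher and 6 were lower with STC1OE corpses. The 14 low ones summed to 8.48 to 10.5 CPM, against 13.4 to 17.96 CPM with control corpses. The part of that difference in the values below was not tested. None of the 10 genes was called by edgeR with STC1OE against control corpses, where 5.44% of all genes tested were (3.33% higher and 2.12% lower). That background, 893 genes, was 1200, 897, 474 and 486 without STC1OE replicates 1 to 4 in turn. Without control replicates 1 to 4 in turn it was 561, 853, 529 and 770. Ranges of the corpse groups did not overlap for 2 of the 10 genes (Nr4a1 and Rxrb), against 10.7% of all genes tested. At an unadjusted p below 0.05 there were 4 of the 10 (Nr1h2, Pparg, Ppard and Nr4a1). The share of all genes at that cutoff was not counted, so this number does not show an excess among the 10. DESeq2 called 1 of the 10, Ppard, and 1021 of 11895 genes. Nr4a1 came closest, with every STC1OE library (3.95 to 4.52 CPM) below every control corpse library (4.79 to 5.2 CPM), a log2 difference of −0.26 ± 0.08 and adjusted p = 0.056 by edgeR; with upper quartile scaling it was called at adjusted p = 0.0471. Ppard was 0.16 ± 0.05 higher (adjusted p = 0.0605 by edgeR), with the first STC1OE library inside the control range, and was called under 6 of 15 alternatives, among them the fit without that library (0.21, adjusted p = 0.00557 by edgeR). Rxra was 0.10 ± 0.05 higher and was called without the low-count filter (adjusted p = 0.0309 by edgeR). Rxrb was at 33.5 to 36.1 CPM with STC1OE corpses and 32.1 to 33.3 CPM with control corpses, with no overlap, but differed by only 0.07 ± 0.04 (adjusted p = 0.367 by edgeR). Including Rxrb, the 95% intervals of the other 7 all lay between −0.18 and 0.27 on the log2 scale, the widest being that of Ppargc1b. None of the 3 paralog ratios passed: Pparg over Ppard was 0.846 of its control corpse level (exact two-sided permutation p = 0.0571, adjusted p = 0.0735), Nr1h3 over Nr1h2 0.988 of it (exact permutation p = 0.743) and Rxra over Rxrb 1.02 times it (exact permutation p = 0.657).

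The other genes of these pathways were taken from lists chosen by function, with earlier results of these data known. Counts of each list below stand beside the shares over all genes tested. These were 21.4% higher and 22.4% lower with STC1OE corpses, 19.7% and 20.5% with control corpses, and 5.44% called between the corpse groups. Of 20 LXR target genes 16 were tested; 10 rose and 4 fell with STC1OE corpses, and 9 rose and 4 fell with control corpses, with a median log2 fold change of 0.44 and 0.41 against −0.03 and −0.00 over all genes. Cd5l, a secreted macrophage protein, rose to 1472 ± 21.1 CPM with STC1OE corpses and 1440 ± 60.4 CPM with control corpses against 610.8 ± 7.23 CPM in macrophages alone. Abca1, which exports cholesterol to lipid-poor apolipoprotein, rose to 993.6 ± 17.1 and 962.3 ± 45.9 CPM against 509.0 ± 18.6 CPM. Scd1, a fatty acid desaturase, rose to 1.81 ± 0.379 and 1.77 ± 0.170 CPM against 0.862 ± 0.261 CPM. Those that fell in both comparisons were Arl4c, Fasn, Lpl and Srebf1. Fasn and Srebf1, for fatty acid synthase and its regulator SREBP-1, are also set by SREBPs. Which factors set the listed genes that rose or fell here was not tested. Apoe was not called (4770 ± 516, 4682 ± 202 and 5238 ± 303 CPM in the same order). Between the corpse groups 1 of the 16 was called, Scd2, another desaturase, at 128.2 ± 2.44 CPM with STC1OE corpses and 108.7 ± 3.53 CPM with control corpses (0.24, adjusted p = 2.58e-06 by edgeR).

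Most tested PPAR targets of the list were higher with corpses, whereas Pparg, and with control corpses Ppard, fell. Of 18 listed, 15 were tested and 13 rose with STC1OE corpses and 13 with control corpses, 0 fell by edgeR in either, and the medians were 0.47 and 0.48. At an unadjusted p below 0.05 by edgeR, and by DESeq2, 0 fell as well. These counts depend on how genes were allotted to lists. Lpl, which could have been placed here, was placed with the LXR targets and fell in both comparisons (log2 −0.16 with STC1OE and −0.10 with control corpses). The tested genes that were not called were Ehhadh, a peroxisomal enzyme (1.66 ± 0.125, 2.00 ± 0.443 and 1.65 ± 0.290 CPM in the order STC1OE corpses, control corpses, macrophages alone), and Plin4, a lipid droplet protein (1.37 ± 0.407, 1.83 ± 0.276 and 1.73 ± 0.361 CPM). Hilpda, an inhibitor of lipolysis at lipid droplets, rose to 23.8 ± 2.26 CPM with STC1OE corpses and 21.8 ± 1.77 CPM with control corpses against 9.65 ± 0.597 CPM in macrophages alone. Plin2, the main coat protein of macrophage lipid droplets, rose to 3467 ± 51.2 and 3508 ± 77 CPM against 1466 ± 20.5 CPM, and Angptl4, an inhibitor of lipoprotein lipase, to 31.9 ± 1.41 and 35.2 ± 3.14 CPM against 14.95 ± 0.816 CPM. Many of these genes also answer to other factors, such as HIF-1 for Hilpda and Angptl4, and which factor moved them here was not tested. Of 9 retinoic acid targets only 3 passed the filter, and Tgm2, transglutaminase 2 (0.64 and 0.53), and Dhrs3, a retinaldehyde reductase (0.23 and 0.17 on the log2 scale), rose with both kinds of corpse.

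Of the 40 other nuclear receptors considered 17 were tested, and 8 fell with STC1OE corpses and 8 with control corpses, with medians of −0.13 and −0.17. By edgeR 0 were called higher, where 21.4% and 19.7% of all genes were. At an unadjusted p below 0.05 there were 2 with STC1OE corpses (Nr2c1 and Esrra) and 0 with control corpses. The share of all genes at that cutoff was not counted. DESeq2 called 0 higher in either comparison. Rxra and Nr1h3 were thus the receptor genes called higher in both comparisons among the 26 tested. Vdr, the vitamin D receptor, fell to 0.963 ± 0.123 CPM with STC1OE corpses and 0.779 ± 0.114 CPM with control corpses against 1.45 ± 0.284 CPM in macrophages alone. Rarg, another retinoic acid receptor, fell to 10.2 ± 0.536 and 9.64 ± 0.246 CPM against 13.5 ± 1.12 CPM, and Rora, which competes with REV-ERBs for DNA, to 18.2 ± 1.198 and 16.9 ± 1.57 CPM against 22.5 ± 0.604 CPM. Esrra (44.9 ± 1.24, 43.3 ± 0.635 and 42.3 ± 2.37 CPM), a partner of PGC-1β, and Nr2c1 (18.6 ± 0.481, 18.3 ± 1.21 and 17.2 ± 0.426 CPM) were not called.

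Around Nr1d2, which was not called, 16 of 18 clock genes were tested. With STC1OE corpses 3 rose and 7 fell, and with control corpses 4 rose and 8 fell. Over all genes tested 21.4% rose and 22.4% fell in the first comparison, and 19.7% and 20.5% in the second. The list medians were −0.04 and −0.16, against −0.03 and −0.00 over all genes. Npas2, which pairs with BMAL1, fell to 1.93 ± 0.124 CPM with STC1OE corpses and 2.28 ± 0.225 CPM with control corpses against 3.60 ± 0.449 CPM in macrophages alone. Per3, a period gene, fell to 5.25 ± 0.328 and 6.00 ± 0.613 CPM against 8.27 ± 0.839 CPM, and Dbp, a clock output factor, to 8.38 ± 0.759 and 8.12 ± 0.455 CPM against 11.97 ± 1.23 CPM. Nr1d1, for REV-ERBα, stood at 4.44 ± 0.578, 4.55 ± 0.266 and 4.53 ± 0.221 CPM and was not called, nor were Per1 and Tef. The sources used here do not give the clock time of harvest.

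Coregulators, which receptors recruit to switch genes on or off, went both ways. Of 20 tested beside Ppargc1b, 5 rose and 7 fell with STC1OE corpses and 4 rose and 7 fell with control corpses, with medians of −0.01 and −0.03. Lpin1, a phosphatase that also coactivates PPARα, fell to 23.4 ± 2.00 CPM with STC1OE corpses and 22.6 ± 1.88 CPM with control corpses against 38.0 ± 1.13 CPM in macrophages alone. Cited2, which binds CBP and p300, fell to 46.0 ± 4.75 and 39.0 ± 0.389 CPM against 63.3 ± 3.28 CPM, and was also higher with STC1OE than with control corpses (0.24, adjusted p = 0.0242 by edgeR). Prdm16 rose to 3.37 ± 0.297 and 3.51 ± 0.255 CPM against 2.49 ± 0.270 CPM. The corepressor gene Ncor1 (215.8 ± 5.86, 214.1 ± 1.77 and 221.8 ± 4.00 CPM), whose product holds unliganded receptors silent, was not called.

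Enzymes that make or remove ligands mostly fell or were too low to test. Of 22 listed, 12 were tested, of which 1 rose and 5 fell with STC1OE corpses and 1 rose and 5 fell with control corpses, with medians of −0.23 and −0.18. Cyp27a1, which makes 27-hydroxycholesterol, an LXR ligand, fell to 11.99 ± 1.67 CPM with STC1OE corpses and 13.5 ± 1.79 CPM with control corpses against 25.8 ± 2.36 CPM in macrophages alone. Ptges, a prostaglandin E synthase, rose to 6.92 ± 0.932 and 6.28 ± 0.227 CPM against 3.63 ± 0.169 CPM. Dhcr7 (24.6 ± 1.05, 22.8 ± 0.763 and 23.9 ± 0.816 CPM) and Alox5 (2.08 ± 0.381, 2.27 ± 0.199 and 2.46 ± 0.183 CPM) were not called.

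**Figure D5:**
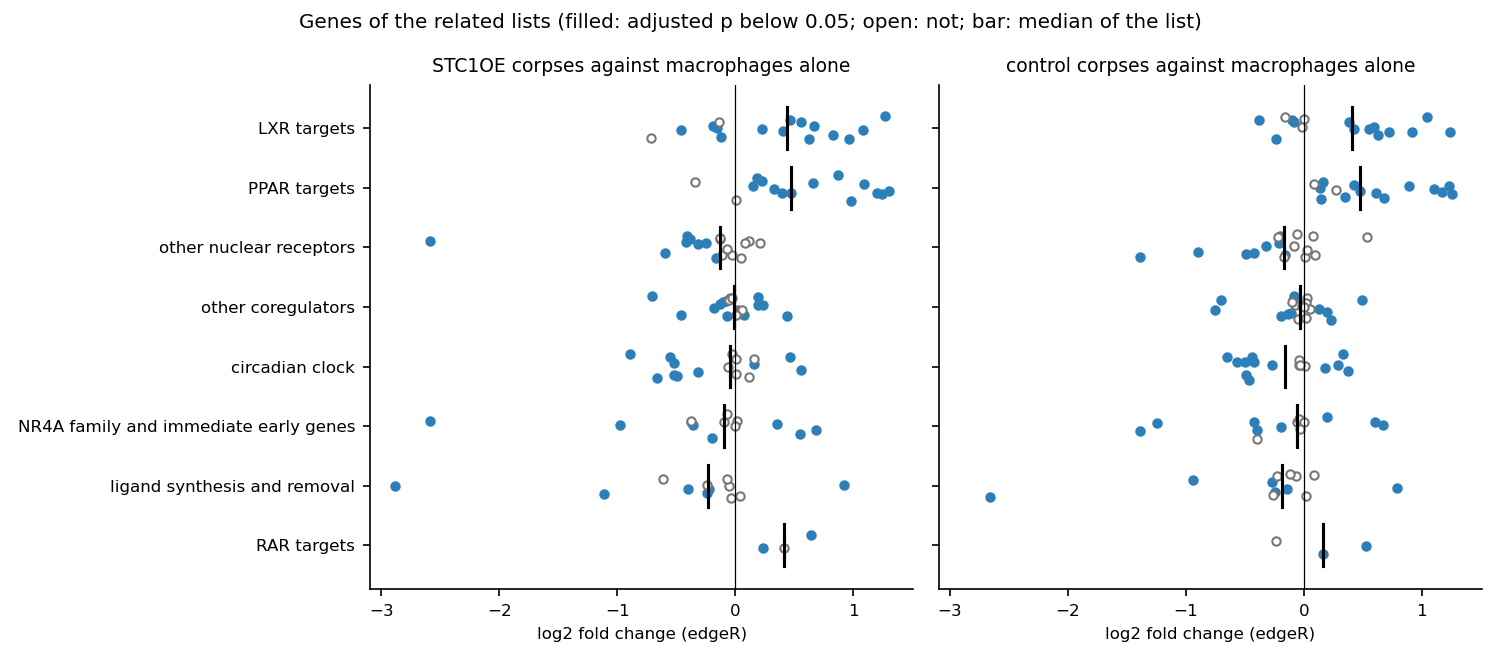
log2 fold change from edgeR (x axes) of each tested gene of 8 related lists (rows), with STC1OE corpses against macrophages alone on the left and control corpses against macrophages alone on the right; filled points passed an adjusted p below 0.05 and bars mark list medians. LXR targets (medians 0.44 and 0.41) and PPAR targets (0.47 and 0.48) lie to the right, while no filled point of the other nuclear receptors does.

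The genes whose profile over the 12 libraries was most like that of a member were sought among 9375 genes of at least 5 CPM, by the root mean square difference of log2 CPM after centring each gene on its own mean. Closest to Nr1h3 was Rnpep, an aminopeptidase, at 0.0476, with 228.5, 221.0 and 151.1 CPM in the order STC1OE corpses, control corpses, macrophages alone, and next Uap1l1 at 0.0488. Atp8b4, a phospholipid flippase (0.0354), and Pak1, a kinase (0.0445), were closest to Pparg. For Rxra they were Chd3, a chromatin remodeller (0.035), and Gpr157 (0.0395), for Rxrb Cmtm4 (0.0426) and Adcy9, an adenylate cyclase (0.0439), for Ppard Sap30l (0.0482) and Lpar5 (0.05), and for Ppargc1b Afg1l (0.0728) and Slc41a1 (0.0807). Nr4a1 had no gene as near. Its nearest were the non-coding gene model Gm15513 (0.101) and Stard4, a cholesterol transfer protein, at 0.107, with 11.3, 12.3 and 37.6 CPM in the same order of groups. This distance can grow with counting error and with the size of a change. Nr4a1 had only 122 to 481 reads per library and moved farthest of the members.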

How the data were processed

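RNA of 12 libraries was measured; per the labels, they were made with TruSeq chemistry and read as 150 bp pairs on a NovaSeq. The authors deposited raw counts per gene, 1 file per library. The submitters' processing notes name HISAT2, HTSeq and DESeq2 and the builds mm10 and GRCm38. The sources used here give neither versions nor the annotation release nor the use of strand, so reads from antisense partners cannot be told apart. Lines that name no gene (41.0% to 46.6% of reads) entered neither library sizes nor tests. Symbols were matched for 54723 of 55604 identifiers; coordinates and exon lengths are those of GENCODE M21 on GRCm38.

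Groups were taken from the sample titles. Counts were filtered with filterByExpr (minimum count 10, minimum total 15) and fitted in R 4.3.3 with edgeR 4.0.16 (TMM, robust quasi-likelihood, all 12 libraries, a mean per group, two-sided). A count of 0 allows up to 0.0750 to 0.105 CPM, counting error only (3 counts). Paralog ratios were compared by exact permutation over 70 arrangements after adding 0.5 counts, with 9 tests adjusted together. The p-values measure the spread between these libraries. On simulated counts for 16406 genes, edgeR called 37.9%, 61.9% and 81.5% of genes changed 1.2-fold, 1.5-fold and 2-fold for control corpses against macrophages alone, with 7 false calls. For STC1OE corpses against macrophages alone it called 38.8%, 67.2% and 81.2%, with 10 false calls, and for STC1OE against control corpses 40.9%, 68.2% and 86.4%, with 7. Each size was given to 63 to 67 genes drawn from all those tested, far fewer than the reported fits called. Alternatives were RLE and upper quartile scaling, DESeq2 1.42.0, a fit without the low-count filter, fits of 2 groups at a time, a replicate block, a threshold of 1.2-fold and leaving out single libraries.

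The members and lists were chosen with earlier results of these data known. From each list the text names up to 3 called genes with the largest change and up to 2 abundant genes that were not called, with a mean of at least 1 CPM. Arl4c, Fasn, Lpl, Srebf1, Scd2, Nr4a2, Nr4a3, Nr1d1, Cry1, Ppara, Rxrg and Ppargc1a fall outside this rule and were picked with their values known. Some genes that the rule admits are not reported here. Likeness was measured for members with a called change of at least 0.26 on the log2 scale.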

Additional observations from a re-analysis of the deposited data

Results flagged for a closer look

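In 2 of 39 groups of 4 libraries examined, 1 library lay far from the other 3, about as many as chance gives when 1 in 20 groups is flagged. Pparg stood at 40.4 CPM in control corpses replicate 2, against 45.0 to 45.9 CPM in the other 3 libraries of that group. The log2 ratio of Pparg over Ppard counts was 0.672 in the same library, against 0.921 to 0.942 in the others. These values share the Pparg count of that library and are not separate observations.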

How the results depend on the processing

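With either kind of corpse against macrophages alone, 4 to 7 of the 10 genes were called under every setting tried, with 4 in each comparison when tested against 1.2-fold. Over all 16406 genes, the test against 1.2-fold called 2119 with STC1OE and 1687 with control corpses. The other settings called 5898 to 7300 of 15860 to 29856 genes. Between the corpse groups, 0 by the fit reported became 1 with RLE scaling, 1 with upper quartile scaling, 1 with DESeq2, 2 with no low-count filter and 2 with a replicate block, and 0 to 1 with a library left out. Over all genes, RLE scaling called 998, upper quartile scaling 842 and the replicate block 1089 of 16406. DESeq2 called 1021 of 11895, and the fit with no low-count filter 1089 of 29856. Replicate numbers did not pair the libraries (correlations of −0.0434 to 0.0912, with 0 of 12 same-numbered pairs over 0.1 and 4 of 12 the best match), and the replicate block called 6, 7 and 2 members with control corpses and with STC1OE corpses against macrophages alone and between the corpse groups, where it added Ppard (adjusted p = 0.0274 by edgeR) and Rxra (adjusted p = 0.0175 by edgeR). For the paralog ratios a sign flip over 4 pairs with the replicate block could not pass (adjusted p = 0.161, exact permutation): log2 differences were 0.52, −0.27 and 0.68 with control corpses, and 0.50, −0.52 and 0.71 with STC1OE corpses, for LXRα over β, PPARγ over δ and RXRα over β. Pparg over Ppard with STC1OE corpses against macrophages alone ranged from −0.602 to −0.448 with a library left out.

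Small differences that were not called changed sign. Between the corpse groups, Nr1h3 over Nr1h2 was 0.0158 without STC1OE replicate 4 and ranged from −0.0612 to 0.0158 over the libraries left out, and Rxra over Rxrb was −0.00128 and −0.0105 without STC1OE replicates 2 and 4 and reached at most 0.0621. With control corpses against macrophages alone, Nr1h2 was 0.00503 without macrophages alone replicate 3 and otherwise down to −0.0458, and Nr1d2 was 0.000129 without macrophages alone replicate 4 and 0.0218 without control replicate 1, and otherwise down to −0.0648. With STC1OE corpses against macrophages alone, Rara was −0.00280 without macrophages alone replicate 1 and −0.0180 without STC1OE replicate 4 and otherwise up to 0.0459, and Nr1d2 was 0.00492 without STC1OE replicate 1 and otherwise down to −0.0524. Between the corpse groups Nr1d2 was 0.0403 and 0.00523 without control replicates 2 and 3, 0.0183 without STC1OE replicate 1 and 0.00110 with DESeq2, and down to −0.0570 without control replicate 1. Nr1h2 with STC1OE corpses against macrophages alone was called without macrophages alone replicate 3 (0.09, adjusted p = 0.0202 by edgeR) and without STC1OE replicate 2 (0.09, adjusted p = 0.0322 by edgeR). The cause of these changes was not tested. Of 720 counts of called list genes, 61 moved by over 1.5 times, 18 of them in the test against 1.2-fold. The count over all genes between the corpse groups was 893; it was 4 against 1.2-fold and 474 to 1200 with a library left out, lowest without STC1OE replicate 3. In the simulated data, 37.9% to 40.9% of genes changed 1.2-fold and 61.9% to 68.2% of those changed 1.5-fold were called. These genes were drawn from all those tested and were far fewer than the reported fits called. The shares therefore do not give the chance of a call for the members. In the reported fit Rxrb was called at −0.21 ± 0.04 with STC1OE corpses against macrophages alone. Ppargc1b, at 0.18 ± 0.09 with control corpses against macrophages alone, was not called.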
